A study of Rattus norvegicus with 12 samples.

Results

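High estradiol was compared with low or no estradiol in the right trigeminal ganglion of rats (Sprague Dawley, female), 1 week after capsules were implanted. Estradiol (E2) is the main ovarian estrogen. The high pool held 6 libraries, 3 from rats with 20% E2 capsules, which the labels set at the level of proestrus, and 3 from rats with 40% E2, set at a therapeutic level. The low-or-none pool held the other 6, 3 from vehicle capsules of cholesterol alone and 3 from 5% E2, set at the level of diestrus. The pools were formed from the labels and together take in all 12 libraries of the series, with 1 library per sample and 3 samples per capsule group. The labels do not say that each sample came from its own animal, so the p-values speak only of how much these samples vary, which may be technical. The series asks how E2 alters the action of serotonin on trigeminal sensory neurons, and this comparison asks which transcripts differ between the higher and the lower doses.

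Estradiol acts mainly through nuclear receptors, estrogen receptor alpha and beta, that bind DNA and change the transcription of target genes, and also through membrane signalling. The trigeminal ganglion holds the cell bodies of the neurons that carry touch, temperature and pain from the face and the meninges, wrapped by satellite glia and accompanied by Schwann cells, vessels and immune cells. Estrogen receptors are known to be expressed in a share of these neurons, and facial pain and migraine vary with the ovarian cycle. In whole tissue, fewer cells of a type and less RNA per cell cannot be told apart. The deposited values carry Ensembl rat identifiers without gene names. The gene reference at hand carried no Ensembl identifiers, so 0 of the 32545 identifiers could be matched. Receptors, peptides, channels and cell type markers are therefore not analysed here, and the tissue label was not checked against its markers. At most 2 genes in each direction are given by identifier. The others are told apart by their rank and by the length of their gene model, in bases, recovered from the values (the smallest length that fits).

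Expression is given as FPKM, in which fragments are divided by the length of the gene model in kilobases and by library depth. The files held 13281981 to 16978830 recovered fragments per library. The high pool averaged 14082601 ± 1403191 fragments (SD, n = 6) and the low-or-none pool 15726098 ± 1245813, a difference that did not pass an exact permutation test (two-sided, p = 0.0606, adjusted p = 0.152 over 5 library measures). Genes above 0 numbered 18526 ± 253 in the high pool and 18377 ± 350 in the low-or-none pool (exact permutation p = 0.422, adjusted p = 0.483). At these depths 3 fragments, the floor for a count of 0, correspond to 0.177 to 0.226 CPM (counts scaled to library depth), a limit that covers counting error only. One library stood apart from the other 11. Vehicle replicate 1 differed from them by 0.497 on average (root mean square difference in log2(FPKM + 1)), against 0.427 to 0.455 for the others. The mean distance between libraries of different pools was 0.450, between the values inside the high pool (0.428) and inside the low-or-none pool (0.460). Without vehicle replicate 1 the low-or-none value was 0.442 and that between pools 0.440.

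No gene passed the threshold between high E2 and low or none (limma on log2(FPKM + 1), adjusted p under 0.05), so 0.0% of the 14781 genes tested were called. The smallest adjusted p was 0.119, shared by 3 genes. At an unadjusted p under 0.05 there were 1017 genes, 6.88% of those tested, 510 higher (3.45%) and 507 lower (3.43%) at high E2. With voom, limma's test on fragments, 0 genes passed as well, and 586 higher and 408 lower genes had an unadjusted p under 0.05. Scaling each library to the same summed FPKM gave 0 calls too, and moved the split to 662 higher and 360 lower. The low-or-none values lay fully above or fully below the high values in 50 genes, 0.338% of those tested, 26 of them higher (0.176%) and 24 lower (0.162%) at high E2.

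**Figure D1:**
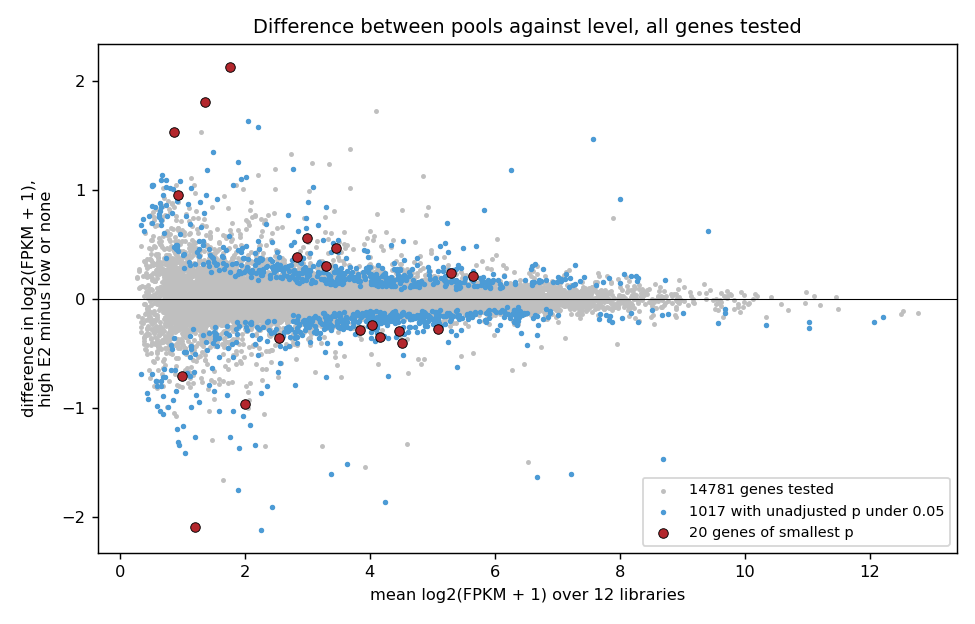
Difference in log2(FPKM + 1) between high E2 and low or none (vertical axis) against mean log2(FPKM + 1) over the 12 libraries (horizontal axis), 1 point per gene. The 14781 genes tested are grey, the 1017 with an unadjusted p under 0.05 are blue and the 20 leading genes, 10 in each direction, are red; the largest red differences belong to genes of low level.

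Most differences were small. The middle of the distribution lay at 0.00 (median difference 0.0042), with the 5th percentile at −0.23 and the 95th at 0.27 on the log2(FPKM + 1) scale. The median standard error was 0.092. For 93.5% of genes the 95% confidence interval of the difference lay within 1 unit of 0, and for 81.0% within 0.5. These limits depended on the level of the gene. Among the 6507 genes averaging 10 to 100 FPKM, 94.9% had an interval within 0.5 of 0, and among the 2317 genes under 2 FPKM 41.7% did. For low genes 1 unit on this scale can be more than a doubling of FPKM, so larger changes remain possible there. The share of genes at an unadjusted p under 0.05 was 5.48% under 2 FPKM, 6.12% from 2 to 10, 7.76% from 10 to 100 and 8.86% in the 745 genes at 100 or more.

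Among genes with higher values at high E2, the smallest p belonged to ENSRNOG00000031939. Its FPKM values were 5.59, 5.50 and 6.84 in vehicle, 4.95, 5.78 and 4.74 at 5% E2, 9.45, 8.28 and 7.80 at 20% E2, and 8.59, 9.93 and 8.01 at 40% E2. All 6 high libraries lay above all 6 others, and the 20% and 40% values overlapped. The pools averaged 8.68 ± 0.842 FPKM (SD, n = 6) at high E2 and 5.57 ± 0.740 at low or none, which differ by 0.56 ± 0.08 (SE) on the log2(FPKM + 1) scale (limma adjusted p = 0.119). The values rested on 409 fragments against 294 over a model of 555 bases. Leaving out vehicle replicate 3, the highest library of the low-or-none pool, gave an adjusted p of 0.0470. Over the other 26 alternatives it did not pass, with a range of 0.0470 to 0.777 over all 27.

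ENSRNOG00000054767 came next among the higher genes. It was listed at 0 in 2 vehicle libraries and at 1.98 FPKM in the third, and at 1.09, 2.06 and 0 at 5% E2. The values were 9.85, 5.98 and 3.90 FPKM at 20% E2 and 4.97, 6.04 and 7.41 at 40% E2. The pools did not overlap, and the lowest high value came from 20% replicate 3. The shortest model that fits is only 60 bases long, at which the high pool held 32 fragments and the low-or-none pool 5. The ratio of fragment rates was 7.11, with an exact 95% interval of 2.75 to 23.4 that covers counting error only. The gene was picked by this same comparison, so the ratio and its interval describe it and are not a test. The log2 difference was 2.13 ± 0.33 (limma adjusted p = 0.119, 0.0657 to 0.810 over the alternatives that kept the gene).

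The gene with the smallest p among those lower at high E2 was ENSRNOG00000054324. It had 10.2, 5.66 and 4.50 FPKM in vehicle and 1.66, 1.56 and 3.25 at 5% E2. It was listed at 0 in all 3 libraries at 20% E2 and in 2 at 40% E2, with 0.943 in the remaining one. The vehicle values were also above all 5% values, though the closest, 4.50 and 3.25 FPKM, stood for 6 and 4 fragments. Its shortest fitting model is 79 bases, so these values stood for 34 fragments in the low-or-none pool and 1 at high E2. The ratio of rates was 0.0327 (exact 95% interval 0.000804 to 0.195, counting error only). No high library reached 1 FPKM, so the gene passed the filter only through the low-or-none pool. It was also picked by this same comparison, so the ratio and its interval describe it and are not a test. The log2 difference was −2.10 ± 0.33 (limma adjusted p = 0.119). With the 4 capsule groups fitted separately, which takes the gap between vehicle and 5% E2 out of the spread, the adjusted p was 0.0176. Without the 5% libraries it was 0.0195, and without the vehicle libraries 0.346. Over the alternatives that kept the gene it ran from 0.0176 to 0.797, and with voom it was 0.602. In the fit of the 4 capsule groups the difference from vehicle was −2.89 ± 0.32 at 20% E2, which passed (limma adjusted p = 0.0226), −2.57 ± 0.32 at 40% E2 (0.0737) and −1.28 ± 0.32 at 5% E2 (0.852). The difference from 5% E2 was −1.62 at 20% E2 (limma adjusted p = 0.673) and −1.30 at 40% E2 (0.968). Each of these contrasts was adjusted over genes on its own, and the number of all genes passing in each is not given here.

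ENSRNOG00000010352 was the second of the lower genes and the best covered of the 4, with 323 to 671 fragments per library over 1778 bases. Its values were 21.7, 18.6 and 17.3 FPKM in vehicle, 18.7, 19.1 and 20.7 at 5% E2, 16.8, 15.4 and 14.9 at 20% E2, and 15.3, 13.2 and 14.5 at 40% E2. Every high library lay below every low-or-none library, with the closest values 16.8 and 17.3. The pools averaged 15.01 ± 1.20 and 19.4 ± 1.57 FPKM (SD, n = 6), a log2 difference of −0.35 ± 0.06 (limma adjusted p = 0.350). It passed under none of the 27 alternatives (0.231 to 0.953).

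**Figure D2:**
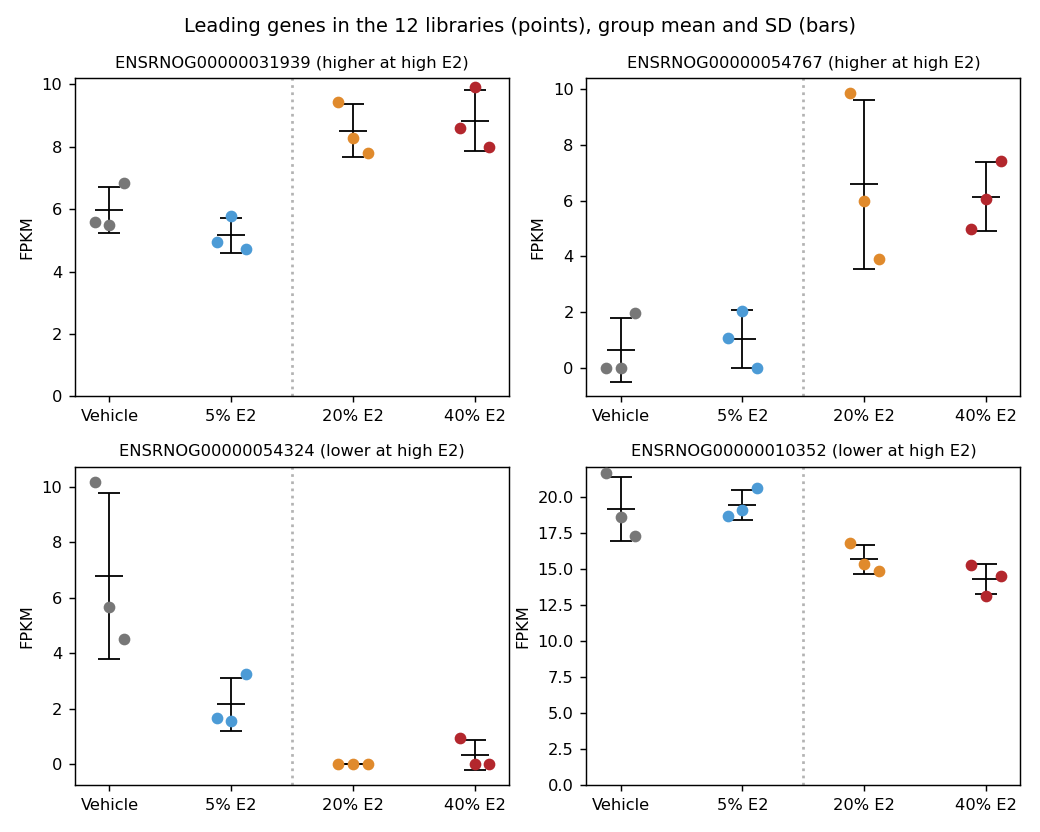
FPKM of the 4 leading genes in each of the 12 libraries (points, 3 per capsule group), with the group mean and SD as black bars; the dotted line parts low or none (vehicle, 5% E2) from high E2 (20%, 40%). ENSRNOG00000031939 ran from 4.74 to 6.84 left of the line and from 7.80 to 9.93 right of it, and ENSRNOG00000054324 went from up to 10.2 FPKM in vehicle to 0 in all 3 libraries at 20% E2.

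The 10 genes of smallest p in each direction included 13 with at least 30 fragments per library and 7 with fewer. The 13 better covered genes, 6 higher and 7 lower, differed by 0.21 to 0.56 in size on the log2(FPKM + 1) scale. The 7 thinly covered ones, 4 higher and 3 lower, differed by 0.71 to 2.13. Their sizes depend on the pseudocount, and with log2(FPKM + 0.1) the 4 higher ones differed by 1.87 to 3.91 and the 3 lower ones by −1.27 to −4.65. The pools did not overlap in 11 of the 20 genes, 6 higher and 5 lower. That count is a description, since the genes were ranked by the same comparison. None passed the threshold, and adjusted p ran from 0.119 to 0.573.

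Among the better covered higher genes, the third by p had a model of 2266 bases. It had 4.49, 5.29 and 5.36 FPKM in vehicle, 5.94, 5.15 and 5.38 at 5% E2, 6.88, 7.22 and 6.97 at 20% E2, and 6.87, 7.68 and 7.36 at 40% E2. The pools were separate, at 7.16 ± 0.318 against 5.27 ± 0.470 FPKM (SD, n = 6), a log2 difference of 0.38 ± 0.07 (limma adjusted p = 0.158). The sixth, of 1201 bases, averaged 53.0 ± 2.55 FPKM at high E2 and 45.7 ± 1.94 at low or none, a ratio of 1.16. Its lowest high value was 49.3 and its highest low-or-none value 49.1, so the pools only just parted. The eighth, of 2413 bases, averaged 42.0 ± 2.58 against 35.6 ± 1.93 FPKM, a ratio of 1.18. The 3 libraries at 5% E2 agreed closely for this gene, at 35.3 to 35.5 FPKM, while vehicle spanned 32.5 to 38.5. The ninth, of 3532 bases, had 10.2 to 10.4 FPKM at 20% E2 and a wider 8.85 to 11.3 at 40% E2, against 7.46 to 8.61 at low or none. The last of the 10, of 986 bases, averaged 11.98 ± 1.75 against 8.37 ± 1.29 FPKM, and its pools overlapped.

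Among the better covered lower genes, the fourth by p had a model of 740 bases. It had 30.2, 22.9 and 26.4 FPKM in vehicle, 25.0, 23.9 and 24.2 at 5% E2, 20.9, 20.1 and 20.5 at 20% E2, and 19.8, 17.3 and 15.2 at 40% E2. Each capsule group averaged below the group of the next lower dose, with means of 26.5, 24.3, 20.5 and 17.5 FPKM, and the 20% values lay above all 40% values. The difference between 40% and 20% E2 was −0.23 on the log2 scale and did not pass (limma adjusted p = 1). Between the pools it was −0.41 ± 0.08 (limma adjusted p = 0.445). The fifth, of 2712 bases, averaged 4.197 ± 0.390 FPKM at high E2 and 5.66 ± 0.488 at low or none, and overlapped only through vehicle replicate 1 at 4.72 and 20% replicate 3 at 4.88. The seventh, of 1366 bases, averaged 19.1 ± 1.88 against 23.6 ± 1.78 FPKM without overlap. The sixth, the eighth and the last of the 10, of 2488, 2095 and 1606 bases, had ratios of high to low-or-none means of 0.807, 0.822 and 0.838, and their pools overlapped.

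The 7 thinly covered genes had the largest differences. The fourth of the higher genes, with a model of 63 bases, held 22 fragments at high E2 and 3 at low or none, and was listed at 0 in all 3 libraries at 5% E2. The seventh, of 107 bases, held 23 fragments against 1. The fifth, of 1433 bases, was the exception in length: it averaged 1.76 ± 0.758 FPKM (SD, n = 6) against 0.379 ± 0.144, on 217 and 51 fragments. One high library, 20% replicate 1 at 0.516 FPKM, lay within the low-or-none range of 0.179 to 0.572, and the other 5 lay between 1.35 and 2.60. Of the lower genes, the third, of 125 bases, held 21 fragments at high E2 and 57 at low or none without overlap in FPKM. The ninth, of 264 bases, held 13 against 41. The fifth and seventh of the higher genes and the ninth of the lower genes reached 1 FPKM only in the pool where they were higher. They passed the filter through that pool alone.

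The doses inside each pool were set beside each other for the same 20 genes, as contrasts of the 4 group means. In ENSRNOG00000031939 the log2 difference from vehicle was 0.45 at 20% E2 and 0.50 at 40% E2, and from 5% E2 it was 0.63 and 0.68. In ENSRNOG00000010352 the values were −0.27 and −0.40 from vehicle and −0.30 and −0.42 from 5% E2. These differences share libraries and are not independent of one another. The difference between 40% and 20% E2 was 0.05 ± 0.12 in ENSRNOG00000031939 and −0.12 ± 0.09 in ENSRNOG00000010352, and that between 5% E2 and vehicle was −0.18 ± 0.12 and 0.02 ± 0.09. Of the 20 genes, ENSRNOG00000054324 alone passed in any of the 6 contrasts between 2 groups, at 20% E2 against vehicle (limma adjusted p = 0.0226). None passed between 40% and 20% E2 or between 5% E2 and vehicle, which does not show that those doses acted alike. The adjustment was made over genes within each contrast and not over the 6 contrasts. The 20 genes had been ranked by the pooled comparison of these same libraries. How many of all genes tested passed in each contrast is not given here, so the single pass cannot be set against a share.

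**Figure D3:**
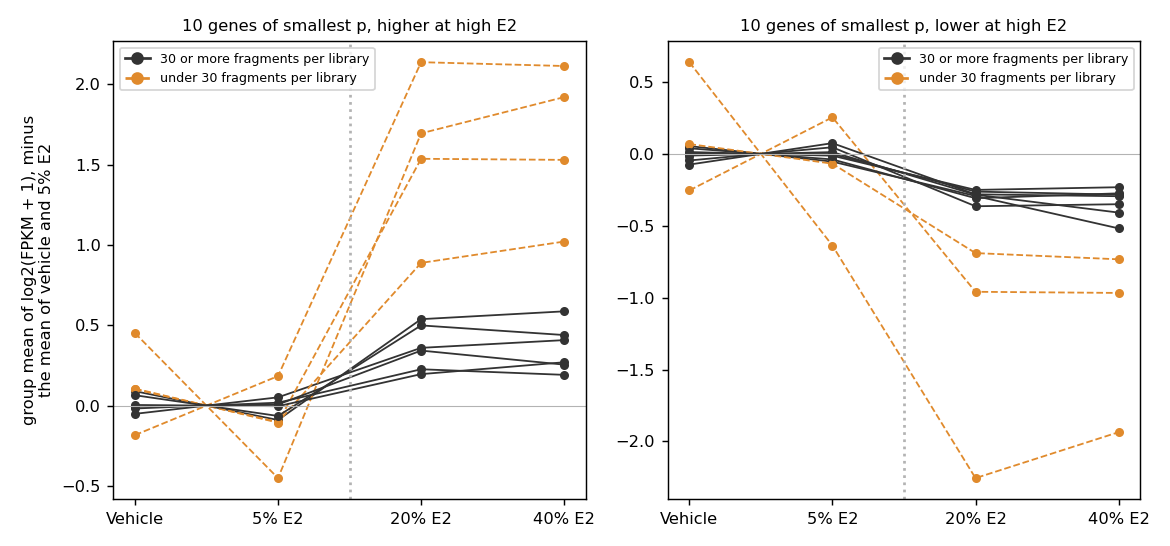
Group means of log2(FPKM + 1) for the 10 genes of smallest p in each direction, less the mean of vehicle and 5% E2, in order of capsule dose; black lines are the 13 genes with 30 or more fragments per library, orange dashed lines the 7 with fewer. The genes were ranked by the difference between the 2 doses right and the 2 groups left of the dotted line, and the pools of the better covered genes differ by 0.21 to 0.56 in size.

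The highest end of expression was also described, where no gene passed the threshold. Of the 50 genes with the highest mean FPKM over all 12 libraries, 35 were lower and 15 higher at high E2, with a median difference of −0.05, beside 7195 lower and 7586 higher and a median of 0.0042 over all genes tested. The wider set of 745 genes at 100 FPKM or more had a median difference of −0.0004 and was evenly split at an unadjusted p under 0.05, with 33 higher and 33 lower. Among the 50 there were 8 lower and 0 higher at that level, where 3.43% and 3.45% of all genes were, and the smallest adjusted p was 0.660. The 50 genes took 17.9% ± 0.361 of the summed FPKM at high E2 and 18.9% ± 0.632 at low or none (SD, n = 6; exact permutation p = 0.0152, adjusted p = 0.0758 over 5 library measures). The ranges of the pools met, at 17.5% to 18.5% and 18.1% to 19.7%. The fifth most abundant gene, of 684 bases, averaged 4014 ± 300 FPKM against 4667 ± 544, a log2 difference of −0.21 ± 0.08 (limma adjusted p = 0.680). Its values ran from 3609 to 4314 at high E2 and from 3944 to 5259 at low or none.

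Large differences between well expressed genes came with wide spreads inside the pools. Of the genes averaging at least 10 FPKM, 17 differed by more than 1 unit, 7 higher and 10 lower at high E2, with adjusted p from 0.606 to 0.790. The pools were separate in 1 of the 17, a gene whose shortest fitting model is 49 bases. A gene of 348 bases shows the spread: its values were 89.6, 7.71 and 3.58 FPKM in vehicle, 4.88, 6.38 and 3.50 at 5% E2, 5.73, 7.84 and 138.7 at 20% E2, and 4.07, 164.1 and 131.8 at 40% E2. It was high in 1 of the 6 low-or-none libraries and 3 of the 6 high ones, with no value between 7.84 and 89.6 FPKM. Its log2 difference of 1.73 had a standard error of 1.14 (limma adjusted p = 0.775).

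Among the 10 lower genes of that kind, 4 with models of 556 to 660 bases followed one another across libraries, chosen by a correlation of at least 0.9 with the most abundant of them. A further lower gene, of 429 bases, was just under that limit at 0.897. The most abundant of the 4 had 1113, 527 and 1654 FPKM in vehicle, 365, 1004 and 289 at 5% E2, 154, 821 and 278 at 20% E2, and 386, 57.6 and 290 at 40% E2. The highest values came from vehicle replicates 1 and 3 and 5% replicate 2, the lowest from 40% replicate 2, and the pools overlapped widely. The other 3 correlated with it at Pearson r of 0.983 to 0.996 on the log2 scale over the 12 libraries, points that share the library and its depth. Each spanned 28.7- to 50.04-fold from the lowest to the highest library. Their differences between pools were −1.64 to −1.46 and did not pass (limma adjusted p 0.698 to 0.731). What these genes encode is not given in the sources used here.

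**Figure D4:**
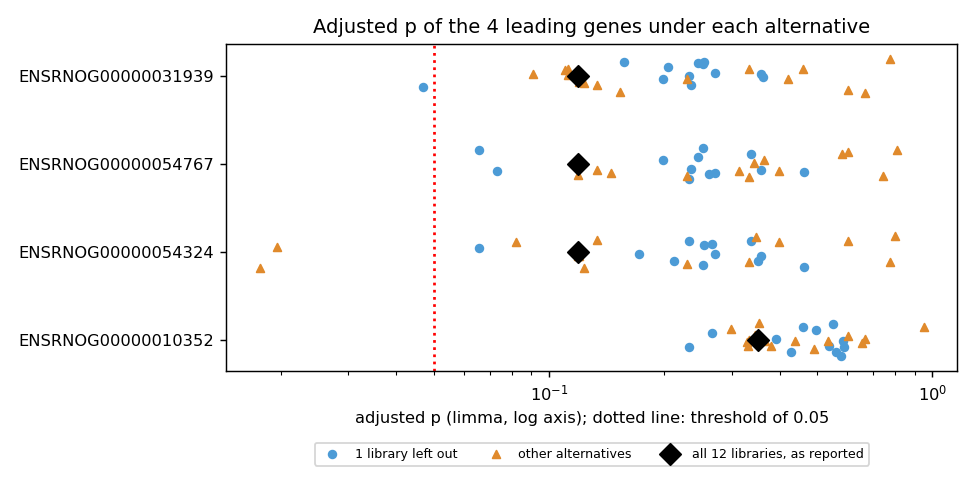
Limma adjusted p (log axis) of the 4 leading genes as reported with all 12 libraries (black diamonds), with 1 library left out (blue circles) and under the other alternatives (orange triangles); the dotted line is the threshold of 0.05. ENSRNOG00000031939 crosses it in 1 fit (0.0470) and ENSRNOG00000054324 in 2 (0.0176 and 0.0195), while the values as reported are 0.119, 0.119, 0.119 and 0.350.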

How the data were processed

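RNA of 12 trigeminal ganglion samples was sequenced, 3 per capsule group. Per the submitters' processing notes, CASAVA, fastp, HISAT2, featureCounts and DESeq2 were used, with no versions or roles stated. Neither the genome build nor the annotation is stated there. The deposited values are FPKM computed by the authors, per the file names. A table of the whole series (12 columns) repeats them under a misaligned header and was not used. Whether counting kept strand, and how near-identical genes were counted, is not stated.

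Fragments were recovered as the smallest whole numbers that fit FPKM, gene length and a library denominator. This worked for each of the 21071 genes detected in 2 or more libraries (largest deviation from a whole number 8.96e-05, within a set tolerance), and the step was tested on simulated data. Where fragments are few, the true length and fragments may both be multiples of those given. Of the genes tested, 810 had models under 200 bases and 1770 averaged under 30 fragments.

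Genes with at least 1 FPKM in at least 3 libraries were tested with limma-trend (limma 3.58.1, R 4.3.3, robust moderation) on log2(FPKM + 1), a scale that understates changes of low genes. The 6 high libraries were fitted against the 6 others, two-sided, with Benjamini-Hochberg adjustment over all genes and a threshold of 0.05. The fit was tested on simulated data, in 3 draws with 200 changed genes each, 120 per size of change over the draws. Genes of like level shared the same spread in the simulation, which is not so in the data. The fit found 18.3% of 1.25-fold changes, 45% of 1.5-fold, 70.8% of 2-fold and 92.5% of 4-fold. These shares hold for the simulated setting and may be too high for the data, where 0 genes passed. Library measures were compared by exact permutation. Libraries of a capsule group were not near-copies of one another (chi-square per degree of freedom 7.26 or more).

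The 10 genes of smallest p each way were described, at most 2 each way by identifier. The large-difference and abundant genes were chosen after their values were seen. The 36 gene lists drawn up need symbols and are not analysed here. The members and lists were chosen with earlier results of these data known.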

Additional observations from a re-analysis of the deposited data

Results flagged for a closer look

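In 52 sets of 6 libraries (20 leading genes and 6 library measures in each pool), 6 had 1 library whose gap to its nearest neighbour, as a share of the range, was above Dixon's 95% critical value. That limit by its definition marks about 1 in 20 sets of independent, normally distributed values, which was not checked for these sets. Of the 6, 2 are a single fragment beside 5 libraries at 0, to which the limit does not strictly apply. Vehicle replicate 1 was such a library 3 times in the low-or-none pool: in summed FPKM (460418), in its mean distance to the other libraries (0.497), and in the fifth of the lower leading genes, of 2712 bases, at 4.72 FPKM where the other 5 had 5.68 to 6.12. Without it 0 genes passed (limma), with 970 at an unadjusted p under 0.05. Vehicle replicate 3, at 0.554 FPKM or 1 fragment, was the only low-or-none library above 0 for the seventh of the higher leading genes, of 107 bases. In ENSRNOG00000054324, 40% replicate 1 was the only high library above 0, at 0.943 FPKM or 1 fragment. In depth, 20% replicate 3 stood apart in the high pool with 16900117 fragments, where the other 5 had 13281981 to 13851803; without it 0 genes passed (limma), with 806 at an unadjusted p under 0.05.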

How the results depend on the processing

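The count of genes past the threshold was 0 with all 12 libraries, and 0 or 1 under the 27 alternatives. Of the 12 fits that left out 1 library, 10 gave 0 calls and 2 gave 1. The call without vehicle replicate 3 was ENSRNOG00000031939 (adjusted p = 0.0470). The call without vehicle replicate 2 was a gene of 2461 bases outside the leading 20 (adjusted p = 0.0100, against 0.573 with all libraries). Of the other 15 alternatives 13 gave 0 calls. Fitting the 4 group means gave 1 call and leaving out the 5% libraries gave 1, both ENSRNOG00000054324 (adjusted p = 0.0176 and 0.0195). The 20 leading genes kept their direction under every one of the 27 alternatives that kept the gene, and the 3 passes named above were the only ones among them. Same-numbered libraries were not treated as pairs in the main fit. Deviations of same-numbered libraries correlated at −0.0544 to 0.0772 in 18 pairs, and 4 of 12 libraries correlated best with their own number. These correlations span all genes tested, and whether some genes follow the replicate number was not tested. With the replicate number as a block 0 genes passed, and 1054 had an unadjusted p under 0.05. That count ran from 671 to 1342 over the alternatives. Depth limits the 1770 tested genes that averaged under 30 fragments. The added alternatives were voom, voom with quality weights (0 calls, 706 higher and 439 lower at an unadjusted p under 0.05), and a filter of 30 fragments and 200 bases (0 calls); these and the contrasts between single doses were chosen after seeing the data.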

Other observations

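The gene of 2461 bases that passed only without vehicle replicate 2 had 2.43, 0.242 and 2.80 FPKM in vehicle, 2.26, 3.84 and 2.42 at 5% E2, 0.6004, 0.321 and 0.594 at 20% E2, and 0.515, 0.825 and 0.512 at 40% E2. Vehicle replicate 2 lay below all 6 high libraries, and the other 5 low-or-none libraries lay above them. It averaged 56.4 fragments per library, and its log2 difference was −0.99 with all 12 libraries (limma adjusted p = 0.573). It was chosen after its values were seen.

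Of the 21071 genes detected in 2 or more libraries, 350 were at 0 in all 6 low-or-none libraries. These were above 0 in at least 2 high libraries, and 92 of them in at least 3. Genes above 0 in only 1 library were not counted. In the reverse direction there were 279 and 67. Most rested on a handful of fragments, with a median of 4 in all for the 350 and for the 279. Above 0 in at least 5 of 6 high libraries and at 0 in all 6 low-or-none libraries were 5 genes, with a median of 12 fragments in all and at most 16. The reverse held for 1 gene, with 14 fragments. No gene was above 0 in all 6 libraries of a pool and at 0 in all 6 of the other. Such genes were picked by their values, so no test was made.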
